A study of Mus musculus with 2 samples.

Results

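The 47 genes described here encode transcription factors that pattern other parts of the embryo and brain than the hippocampus: the midbrain and hindbrain, the eye, the ventral neural tube, the hypothalamus, the sensory and brainstem nuclei, and the somites, limbs and heart. They are a list of gene names, with no threshold on a measured value, and all were found among the 21755 protein-coding genes of chromosomes 1 to 19 and X in the GENCODE mouse annotation (mm10). The question put to them was how loci that are rich in CpG dinucleotides and belong to the programmes of other regions look in hippocampal tissue by DNase-seq, an assay in which the enzyme DNase I cuts accessible DNA. The data are 2 libraries of tissue labelled layer of hippocampus, with no layer named, from B6CASTF1/J mice, a hybrid between a laboratory strain and CAST. Both were labelled male, 25 days old and untreated as far as the labels say. They form 1 group of biological replicates 1 and 2. Both tissue samples point to the same donor entry, the labels do not say how many animals were used, and differences between them may be technical in part. RNA was not measured, so whether any of the 47 genes was transcribed was not examined.

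Factors of this kind are deployed in the neural tube and other embryonic tissues by signals such as Sonic hedgehog, Wnt and retinoic acid, and their combinations assign regional identity. Outside the cells that use them, their genes are known as classical targets of Polycomb repression, and many lie in long clusters of CpG islands that stay free of DNA methylation. A few are also used in cells of the postnatal hippocampus: Pax6 in dentate progenitors, Nkx2-2 and Nkx6-2 in the oligodendrocyte lineage, and Lhx1 in Cajal-Retzius cells.

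For each library the authors deposited peaks with a signal value, runs of bases whose cut rate passed an FDR of 0.05, and footprints, which are short stretches inside open DNA that were cut less than their surroundings. Replicate 1 had 93545 peaks over 23.3 Mb and 223251 footprints, and replicate 2 had 79144 peaks over 18.0 Mb and 170016 footprints. The number of cuts behind each value is unknown. Peaks at promoters of 4 of 4 Y-linked genes (Ddx3y, Kdm5d, Uty, Eif2s3y) and 0 at Xist were found in replicate 1, against 0 of 4 and 3 peaks at Xist in replicate 2, which went against the male label of the second library. Replicate 2 stands throughout for the library labelled male replicate 2, and sex and library cannot be told apart. Promoters of hippocampal excitatory neuron markers (such as Slc17a7, Camk2a, Neurod6, Prox1 and Wfs1) had peaks in both libraries in 6 of 6, against 63.2% of all genes. Defining markers of the labelled tissue were thus accessible. Lists of other cell types ran from 0 of 6 microglial to 4 of 6 astrocyte and 4 of 6 meningeal markers. Promoter peaks alone therefore do not identify the tissue.

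The first sequences come from 2 promoters of the 47 genes that were near each other in G+C content but not in number of CpGs, and that differed in accessibility in replicate 1 only. They are the 250 bases upstream of the RefSeq start of 2 regulators of brainstem and sensory neurons, Barhl2 and Phox2a (RefSeq promoters, GRCm38.p6, which is mm10), each read along its own gene with every CpG in capitals. The Barhl2 stretch (chr5:106458167-106458416, minus strand) had 36 CpGs and 74.8% G+C, and in replicate 1 all 250 bases lay in FDR runs, against 0 for the library labelled male replicate 2. The Phox2a stretch (chr7:101818063-101818312, plus strand) had 22 CpGs and 70.4% G+C and held 0 such bases in either library. Neither stretch overlaps an annotated exon.
Barhl2 upstream: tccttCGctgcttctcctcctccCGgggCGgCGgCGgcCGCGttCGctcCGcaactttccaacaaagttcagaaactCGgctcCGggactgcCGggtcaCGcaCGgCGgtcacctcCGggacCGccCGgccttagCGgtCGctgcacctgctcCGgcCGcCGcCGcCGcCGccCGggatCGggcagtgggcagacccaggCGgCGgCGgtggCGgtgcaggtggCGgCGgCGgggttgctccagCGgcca
Phox2a upstream: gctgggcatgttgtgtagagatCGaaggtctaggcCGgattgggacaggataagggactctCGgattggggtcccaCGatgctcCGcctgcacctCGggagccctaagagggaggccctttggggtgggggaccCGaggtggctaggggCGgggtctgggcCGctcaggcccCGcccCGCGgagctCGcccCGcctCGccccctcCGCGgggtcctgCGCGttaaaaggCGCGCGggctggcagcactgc

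The next 4 stretches are the places away from coding gene starts where a few of the 47 loci were most accessible in both libraries, and the fifth is the strongest shared promoter peak of Tlx3. All are on the plus strand of GRCm38.p6, and capitals mark bases inside a footprint of either library. The Six3 peak (chr17:85633741-85633920) lies 12800 bp from the nearest Six3 start on its downstream side, and 41 of its 54 footprint bases were footprints in both libraries. The Nkx2-2 peak (chr2:147177801-147178000) lies in an annotated coding exon at the far end of the gene, with 41 of 59 footprint bases common to both libraries. The Pax5 peak (chr4:44564741-44564860) is intronic, with 35 of 48, and the Barhl1 peak (chr2:28924001-28924180) is upstream, with 29 of 53. The Tlx3 stretch (chr11:33203815-33204114) is the middle of its promoter peak and overlaps a noncoding exon of Gm12116, with 11 of 33 footprint bases in common.
Six3 distal peak: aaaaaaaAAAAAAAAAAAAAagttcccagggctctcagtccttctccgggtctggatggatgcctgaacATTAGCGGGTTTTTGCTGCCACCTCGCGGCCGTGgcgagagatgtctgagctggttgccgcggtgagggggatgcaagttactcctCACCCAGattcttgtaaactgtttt
Nkx2-2 distal peak: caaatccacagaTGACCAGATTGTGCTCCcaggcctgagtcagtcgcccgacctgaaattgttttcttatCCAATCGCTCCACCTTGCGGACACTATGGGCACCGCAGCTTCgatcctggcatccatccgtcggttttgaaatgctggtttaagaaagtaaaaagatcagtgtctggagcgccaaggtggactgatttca
Pax5 distal peak: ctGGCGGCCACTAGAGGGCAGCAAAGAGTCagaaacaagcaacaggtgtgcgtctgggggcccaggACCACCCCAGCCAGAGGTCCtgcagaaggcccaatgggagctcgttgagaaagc
Barhl1 distal peak: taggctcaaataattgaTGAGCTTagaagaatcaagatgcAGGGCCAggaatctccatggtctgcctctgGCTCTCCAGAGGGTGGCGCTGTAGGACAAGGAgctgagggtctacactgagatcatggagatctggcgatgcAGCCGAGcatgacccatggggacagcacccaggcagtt
Tlx3 promoter peak: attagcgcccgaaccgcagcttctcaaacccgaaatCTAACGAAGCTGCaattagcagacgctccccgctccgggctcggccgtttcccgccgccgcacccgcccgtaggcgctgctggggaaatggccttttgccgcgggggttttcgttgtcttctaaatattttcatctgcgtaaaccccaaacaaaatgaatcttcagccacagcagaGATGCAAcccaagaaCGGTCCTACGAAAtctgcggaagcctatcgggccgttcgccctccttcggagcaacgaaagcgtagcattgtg

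Fewer of the 47 genes had a promoter peak in both libraries than genes in general, and the promoter peaks that were called were weak. A promoter peak, meaning a peak within 1 kb of any annotated transcript start, was present in both libraries at 18 of 47 genes (38.3%), against 63.2% of all protein-coding genes. Counted on its own, replicate 1 had a promoter peak at 35 of the 47 genes, against 65.7% of all genes. Replicate 2 had one at 20, against 64.5%, so the lower share did not hold in replicate 1 alone. With the authors' shorter and stricter peak list a promoter peak was present in both libraries at 3 of the 47 genes and at 57.7% of all genes. A promoter was called CpG-rich when some window of 500 bp around a start had a CpG observed/expected ratio above 0.75 and more than 55% G+C. By that rule 35 of the 47 genes (74.5%) were CpG-rich, against 45.8% of all genes. Among these 35 genes 14 (40.0%) had a promoter peak in both libraries, where 95.9% of all CpG-rich promoters did. The other 12 genes had one in 4 cases, near the 35.6% of all promoters that are not CpG-rich. By this rule the shortfall lay among the CpG-rich promoters, where an open state in both libraries is otherwise almost universal. The split depends on the cutoff. The other 12 genes had a median ratio of 0.70 in 1 kb around a start, against 0.31 over all promoters not CpG-rich. With a ratio of at least 0.6 and at least 50% G+C in 1 kb, 45 of 47 genes were CpG-rich. Of these, 18 (40.0%) had a promoter peak in both libraries, against 94.9% of all such promoters.

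Peak values told the same story in another measure. The value is the authors' signal, a linear coverage-like height with a scaling that is not given, and the strongest peak in the promoter window was taken for each gene. Over the members with a promoter peak the median was 0.735 in replicate 1 (35 genes) and 0.596 in replicate 2 (20 genes). Over all genes with a peak it was 2.17 and 2.08. For the CpG-rich members alone it was 0.820 and 0.641, against 2.49 and 2.40 over all CpG-rich promoters with a peak. All 27 CpG-rich promoters of these genes with a peak in replicate 1, and all 16 in replicate 2, lay under the lower quartile of CpG-rich promoters genome-wide, which was 1.80 and 1.68. The bulk tissue does not tell a promoter open in few cells from one weakly open in many.

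**Figure D1:**
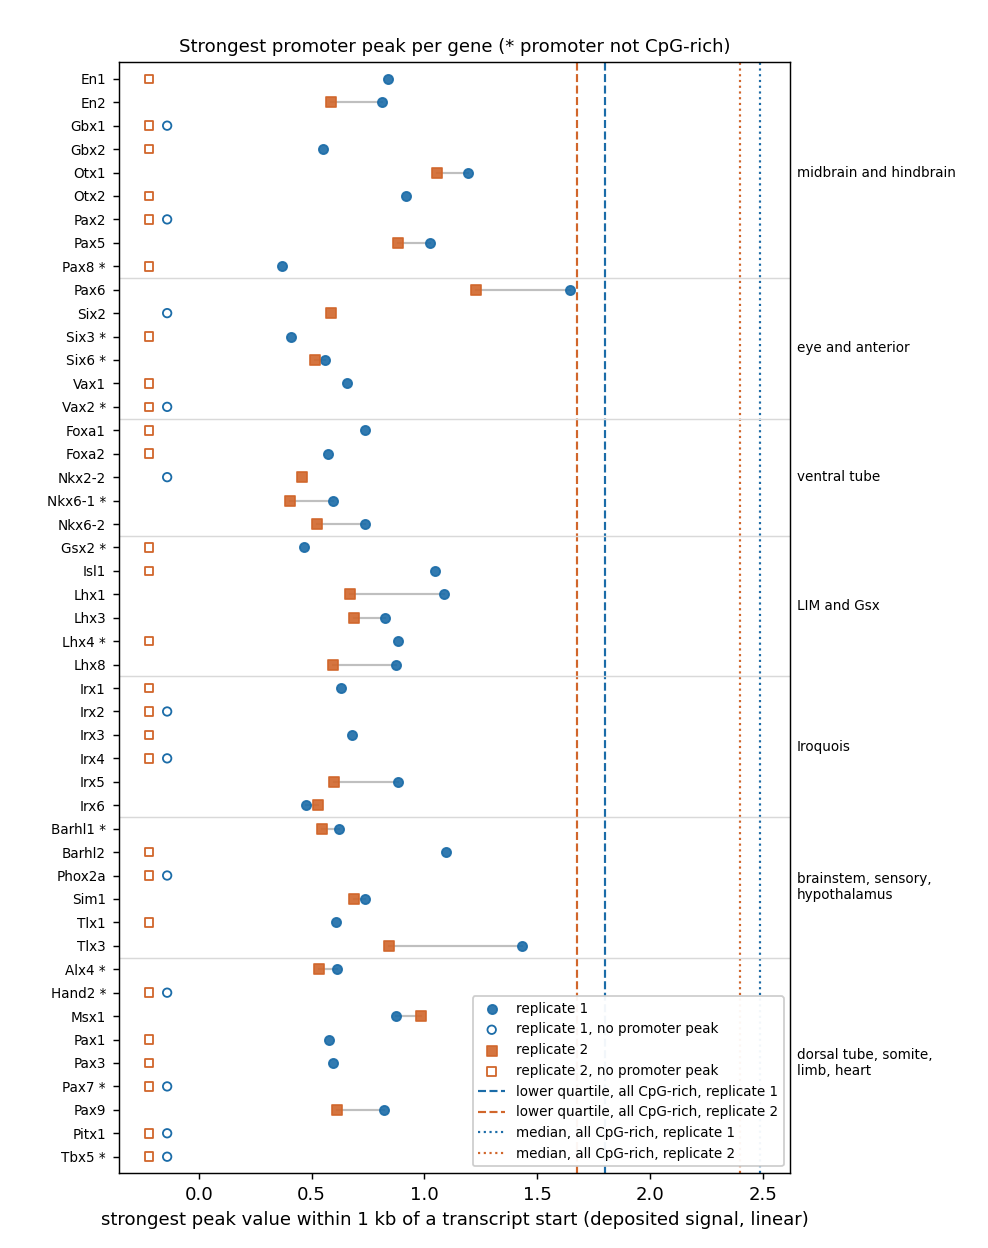
Strongest promoter peak of each of the 47 genes in replicate 1 (blue circles) and replicate 2 (orange squares) on the deposited linear signal scale, grouped by role; open symbols left of 0 mark genes with no promoter peak, and asterisks promoters that are not CpG-rich. Every filled symbol lies left of the dashed lower quartiles of all CpG-rich promoters (1.80 and 1.68), and the highest, Pax6, reaches 1.65 and 1.23.

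The strongest promoters belonged to genes of several roles. Pax6, an eye and forebrain factor, had 1.65 in replicate 1 and 1.23 in replicate 2, and Tlx3, which specifies glutamatergic neurons of the dorsal horn, had 1.43 and 0.844. Otx1, a factor of the anterior brain, had 1.19 and 1.06, a mean of 1.13 ± 0.0969 (SD, n = 2). Pax5, of the midbrain-hindbrain boundary, had 1.02 and 0.883, and Msx1, of the dorsal tube and tooth buds, had 0.876 and 0.986. These 5 genes had both libraries above the members' own medians. Barhl2 (1.10), Isl1 (1.05, a motor neuron factor) and Otx2 (0.919, a midbrain, choroid plexus and retinal factor) also ranked among the 8 highest, but on replicate 1 alone, since the library labelled male replicate 2 had no promoter peak at any of the 3. Ranks used the mean over the libraries with a peak. By replicate 1 alone Lhx1 (1.09) was above Isl1, Pax5, Otx2 and Msx1.

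A promoter peak in 1 library was as common among these genes as one in both. It was seen in replicate 1 only at 17 of 47 genes (36.2%), against a background of 2.51%, and in the library labelled male replicate 2 only at 2, Six2 and Nkx2-2 (4.26%), against 1.34%. The 17 were En1, Gbx2, Otx2, Pax8, Six3, Vax1, Foxa1, Foxa2, Lhx4, Isl1, Gsx2, Irx1, Irx3, Barhl2, Tlx1, Pax1 and Pax3, so every role was represented. No promoter peak was called in either library at 10 genes: Gbx1, Pax2, Vax2, Irx2, Irx4, Phox2a, Pax7, Hand2, Tbx5 and Pitx1, 6 of them CpG-rich. That is 10 of 47, against 33% of all genes, and 6 of 35 among CpG-rich promoters, against 2.33%. None of the 47 loci was without any peak, since each of those 10 had at least 1 distal peak in at least 1 library.

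Promoter windows also held fewer accessible bases than those of other CpG-rich genes. Among CpG-rich members with a promoter peak, the strongest had a median width of 359 bp in replicate 1 and 230.5 bp in replicate 2. Over all CpG-rich genes with one it was 420 and 340 bp. Bases in FDR runs within the promoter window had a median of 377 in replicate 1 and 0 in replicate 2 over the 47 genes, against 774 and 674 over all genes. Over the CpG-rich members it was 397 and 6, against 1242 and 1127 over all CpG-rich genes. Genes without such a base counted as 0, so these medians mix absence with width. No such base was found at 11 of 47 genes in replicate 1, against 33.3% of all genes, and at 24 in replicate 2, against 34.4%. Otx1 stood at the other end, with 3035 and 2929 bases, or 92.5% and 89.2% of its promoter windows. Sim1, needed for hypothalamic paraventricular neurons, had 1720 and 1755 bases, close to each other in both libraries. Pax9 (2572 and 409), Lhx8 (1814 and 738), Pax5 (1632 and 891) and Barhl2 (1892 and 0) completed the 6 highest, each with more in replicate 1. Windows are longer where starts are spread out (8676 bp at Pax5, 2001 bp at Barhl2), so this order is not one of share. Pax5 had 18.8% and 10.3% of its window, while Gsx2, outside the 6, had 73.7% and 0%.

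The longest single FDR run in the gene with 10 kb on each side, called the locus below, had a median of 647 bp in replicate 1 and 229 bp in replicate 2, against 874 and 757 over all genes. Otx1 had runs of 3286 and 2224 bp, Sim1 1435 and 1452 bp, and Irx5 1659 and 959 bp, so wide runs at these 3 loci were present in both libraries. Barhl2 had 2898 bp and no run, Nkx6-2 1734 and 510 bp, and Lhx8 1394 and 553 bp. Long runs at the latter 3 were thus a feature of replicate 1.

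Promoter footprints were also fewer, with medians per gene of 3 in replicate 1 and 0 in replicate 2, against 5 and 4 over all genes. A footprint lay in the promoter window in both libraries at 15 of 47 genes (31.9%), against 61.6% of all genes. In replicate 1 alone 33 of 47 genes had a promoter footprint, against 64.3% of all genes. The library labelled male replicate 2 had one at 18, against 63%. Otx1 had 20 and 17 promoter footprints, Pax5 7 and 9, Sim1 7 and 7, Pax9 16 and 4, Lhx8 10 and 2 and Barhl2 14 and 0. These counts were not adjusted for window length either. Inside promoter peaks of these genes there were 5.55 footprints per kb in replicate 1 and 6.07 in replicate 2, against 9.28 and 8.97 inside all promoter peaks. Inside their distal peaks the density was 6.09 and 7.08, against 6.98 and 7.42 for all distal peaks, a smaller gap than at promoters.

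Away from promoters the picture differed. A distal peak, one that overlaps no window of 1 kb around a coding gene start, was found in both libraries in the locus of 27 of 47 genes (57.4%), against 49.5% of all genes. Among CpG-rich genes alone the shares were close, 57.1% of those in the list and 59.6% of all. Because long genes collect more peaks, each count was also ranked among the 200 genes nearest in length. The median percentile over the 47 genes was 88.0 in replicate 1 and 67.8 in replicate 2, against 44.0 and 41.8 over all genes. The median locus thus ranked above most genes of its length in both libraries, by a wider margin in replicate 1. For the CpG-rich members it was 88.0 and 70.25, against 54.0 and 53.0 over all CpG-rich genes. In 2 lists described below it was 95.6 and 96.4 (forebrain and hippocampal factors) and 79.75 and 71.0 (family relatives). High ranks were therefore not particular to the 47 genes.

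Otx1 had 18 and 15 distal peaks and stood at percentile 100 in both libraries. Gbx1, a factor of the hindbrain and spinal cord, had 19 and 9 with no promoter peak, but 14 and 8 of these lay inside the next gene, Agap3. Irx5, of the Iroquois family, had 13 and 10. Pax5 had 12 and 13, Sim1 11 and 6 and Nkx6-1, a ventral progenitor factor, 12 and 5. These 6 loci had distal peaks in number in both libraries. Of all distal peaks at the 47 loci, 50 of 248 and 20 of 121 lay inside another annotated gene, antisense and noncoding genes included. Barhl2 had 20 and 0 and Foxa1, a floor plate and endoderm factor, 15 and 0, so their rank came from replicate 1 alone. Some peaks of a library overlap each other in the deposited lists: at the 47 loci the 352 and 174 peaks joined to 311 and 164 separate regions, and the 18 and 15 of Otx1 to 9 and 13. At 5 loci (Pax8, Six6, Lhx3, Otx2, Isl1) no distal peak was found in either library, against 36.8% of all genes.

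Most distal peaks at these loci were as weak as distal peaks elsewhere, with median values of 0.523 and 0.522 against 0.551 and 0.548. They differed from all distal peaks in composition. The median CpG observed/expected ratio was 0.55 in replicate 1 and 0.583 in replicate 2, against 0.261 and 0.265 over all distal peaks. A ratio of at least 0.6 was found in 104 of 248 peaks (41.9%) and 55 of 121 (45.5%), against 10.3% and 11.3%. The letters CGCG occurred in the middle 200 bp of 41.5% and 49.6%, against 11.0% and 11.7% of all distal peaks. CGCG reads the same on both strands and can overlap the GC box GGGCGG, which was found on either strand in 14.1% and 16.5%, against 8.16% and 9.0%. The homeodomain core TAATTA was found in 5 of 248 and 1 of 121 peaks, 2.02% and 0.826%, against 2.87% and 3.14%. Promoter peaks of the 47 genes differed less from all promoter peaks, with a median ratio of 0.731 and 0.810 against 0.693 and 0.722. The loci thus carried CpG-rich accessible DNA beyond their starts, where distal peaks elsewhere were mostly CpG-poor. Distal peaks near other CpG-rich genes were not measured apart, so whether this was particular to the 47 loci was not tested.

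**Figure D2:**
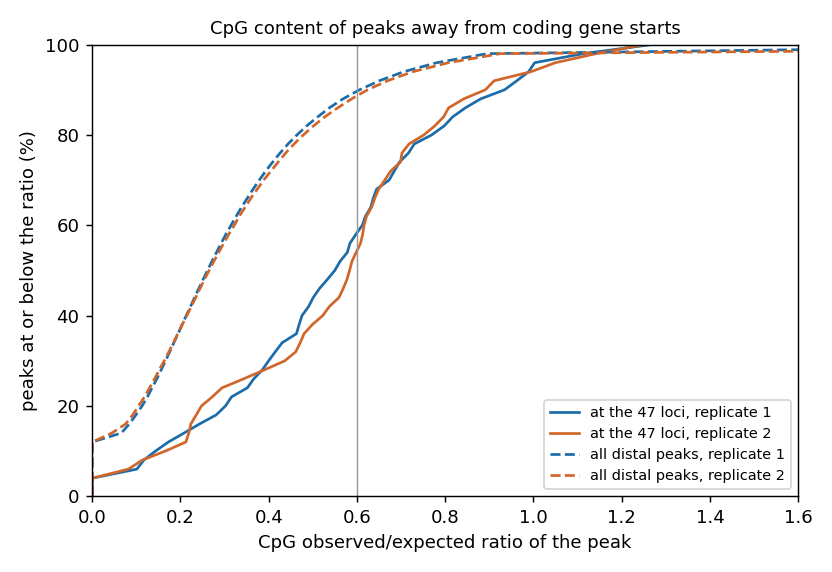
Cumulative distribution of the CpG observed/expected ratio of distal peaks, at the 47 loci (solid lines) and over all distal peaks (dashed lines), in replicate 1 (blue) and replicate 2 (orange); the grey line marks 0.6. The solid curves lie to the right of the dashed ones in both libraries, with medians of 0.55 and 0.583 against 0.261 and 0.265.

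A few distal peaks were strong and shared. The highest was upstream of Gbx1 (chr5:24530121-24530360), with 2.74 in replicate 1 and 3.07 in replicate 2. The Nkx2-2 exonic peak printed above had 2.33 and 2.36, and a peak upstream of Irx5 (chr8:92355781-92356520) within 1 kb of the start of the noncoding gene Crnde had 2.28 and 2.30. The peak downstream of Six3 had 1.52 and 2.15, the intronic Pax5 peak 1.36 and 1.95 and the peak upstream of Barhl1 1.29 and 1.59. All of these 6 exceeded the promoter value of their own gene in both libraries. At Gbx1 in both libraries, at Nkx2-2 in replicate 1 and at Six3 in the library labelled male replicate 2, the promoter had no peak at all. The printed Pax5 and Barhl1 stretches were CpG-poor, with 3 CpGs each. Of these 6 peaks only the Pax5 peak matched the CTCF consensus, a fixed pattern of letters with no mismatch allowed. Inside their footprints the printed Six3 and Nkx2-2 stretches held near matches on the minus strand, and the Barhl1 stretch a looser one on the plus strand. None of these was counted. Among distal peaks with a value of at least 1, 23.3% and 32.9% matched in full over all genes. At the 47 loci 1 of 13 and 1 of 7 did. Among distal peaks of any value the shares were 7.42% and 11.2% over all genes, and 3.23% and 5.79% at the 47 loci. These shares leave out near matches, so whether CTCF-like sites were fewer at the 47 loci was not tested. At Lhx1, a factor of early neurons, the strongest peak of the locus (3.07 and 2.68) lay at the promoter of its neighbour Aatf.

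The libraries differed in how much open DNA these loci held. Summed over the 47 loci, replicate 1 had 2.02 times the peaks, 2.52 times the FDR bases (119471 and 47444) and 2.48 times the footprints (701 and 283) of the library labelled male replicate 2. Over the loci of all protein-coding genes these ratios were 1.18, 1.25 and 1.32. Of the peaks at the 47 loci, 32.7% of distal and 31.4% of promoter peaks called in replicate 1 had an overlapping partner in the other library, against 51.5% and 78.0% of all such peaks. In the other direction the shares were 66.9% and 58.0%, against 64.7% and 85.0%. Peaks without a partner were weaker, with a median of 0.466 against 0.721 for shared distal peaks of replicate 1.

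Replicate 1 had more peaks at 32 of 47 loci, against 34.4% of all genes, replicate 2 at 10, against 23.2%, and 5 were equal. Peak counts plus 1 were at least 4-fold higher in replicate 1 at 13 of 47 loci, against 1.25% of all genes: Pax1, Pax6, Pax9, Six3, Barhl2, Otx2, Gsx2, Vax1, Foxa1, Foxa2, Hand2, Pitx1 and Msx1. The reverse was found at 1 locus, Nkx2-2, against 0.331% of all genes. At 7 loci replicate 1 had at least 3 peaks and the library labelled male replicate 2 had 0 (Barhl2, Otx2, Gsx2, Vax1, Foxa1, Hand2, Pitx1), against 0.372% of all genes. These rules were set after the values had been seen. With overlapping peaks joined, 13 loci still passed the first rule, and with the authors' shorter peak list 10 did.

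**Figure D3:**
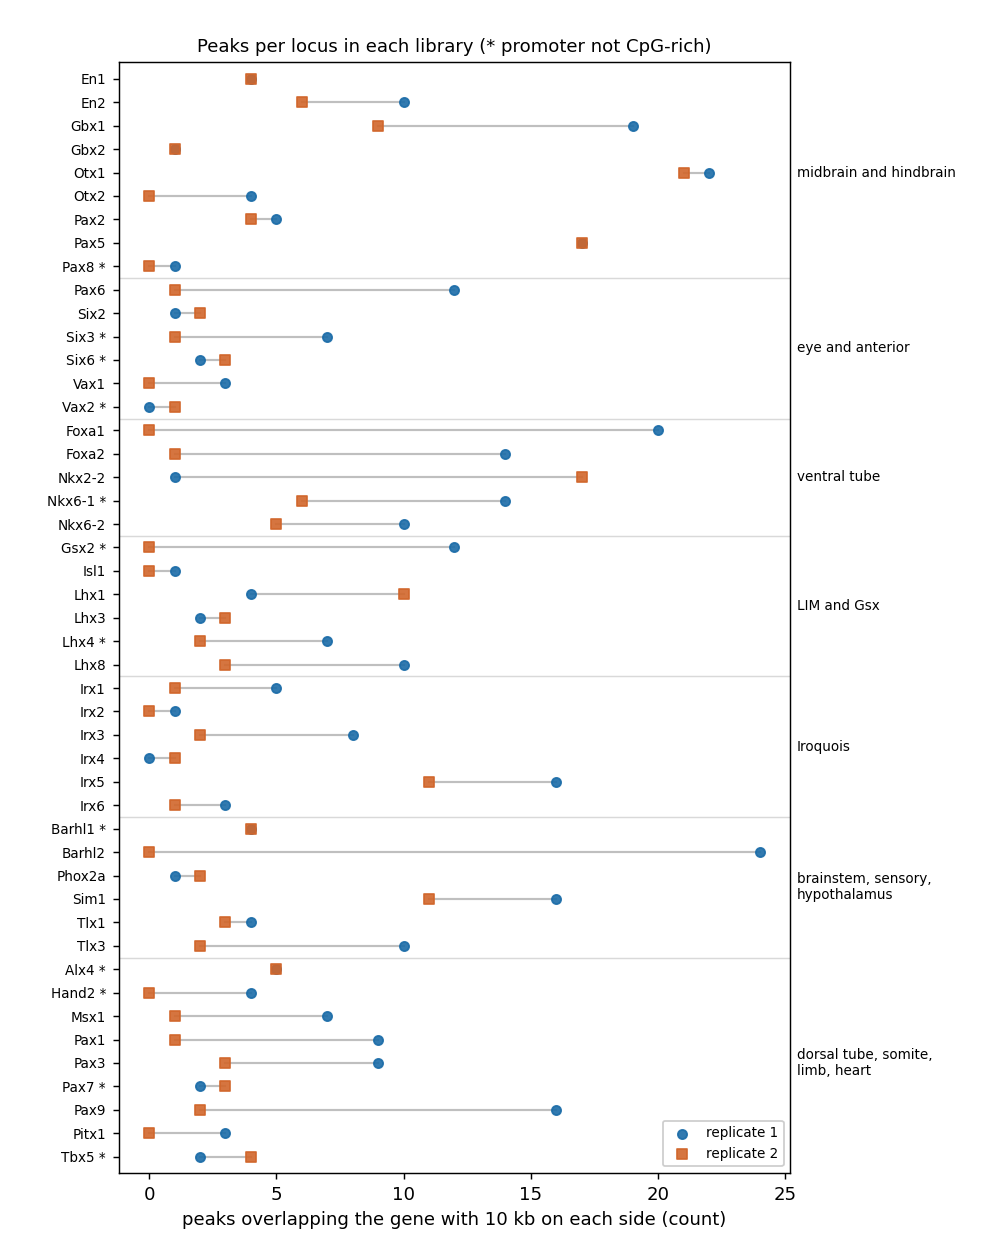
Number of peaks overlapping each gene with 10 kb on each side, in replicate 1 (blue circles) and replicate 2 (orange squares), grouped by role. Long grey lines join unequal pairs: Barhl2 (24 and 0), Foxa1 (20 and 0), Gsx2 (12 and 0) and, in the other direction, Nkx2-2 (1 and 17), while Otx1 (22 and 21) and Pax5 (17 and 17) nearly coincide.

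At the most extended of these loci the difference covered a stretch of several kb. Foxa1 had 20 peaks over 14.8 kb in replicate 1 with 7213 FDR bases, and 0 of either in the same stretch of the other library. Gsx2, which patterns the lateral ganglionic eminence, had 12 peaks over 14.8 kb with 3124 FDR bases and 0 in the other library. Foxa2 had 14 peaks over 11.9 kb with 5155 bases against 142, and Pax9, of the sclerotome, had 16 peaks over 13.5 kb with 6126 bases against 425. At Foxa1, Gsx2 and Foxa2 the peaks reached from before the gene to beyond its end, and at Pax9 they covered the flank before the start and the first part of the gene. Nkx2-2 showed the mirror image, with 17 peaks over 17.2 kb and 4195 bases in the library labelled male replicate 2 against 1 peak and 216 bases in replicate 1. Pax1, also a sclerotome gene and only 168 kb away, had 8 peaks over 11.7 kb with 2381 bases in replicate 1 and 0 of either in that stretch of the other library, so 2 loci close together on a chromosome went opposite ways. Other unequal loci were short: Otx2 had 4 peaks over 1.22 kb, Vax1 3 with 543 FDR bases and Pitx1 3 with 467, and the 4 peaks of Hand2 covered 2.81 kb.

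**Figure D4:**
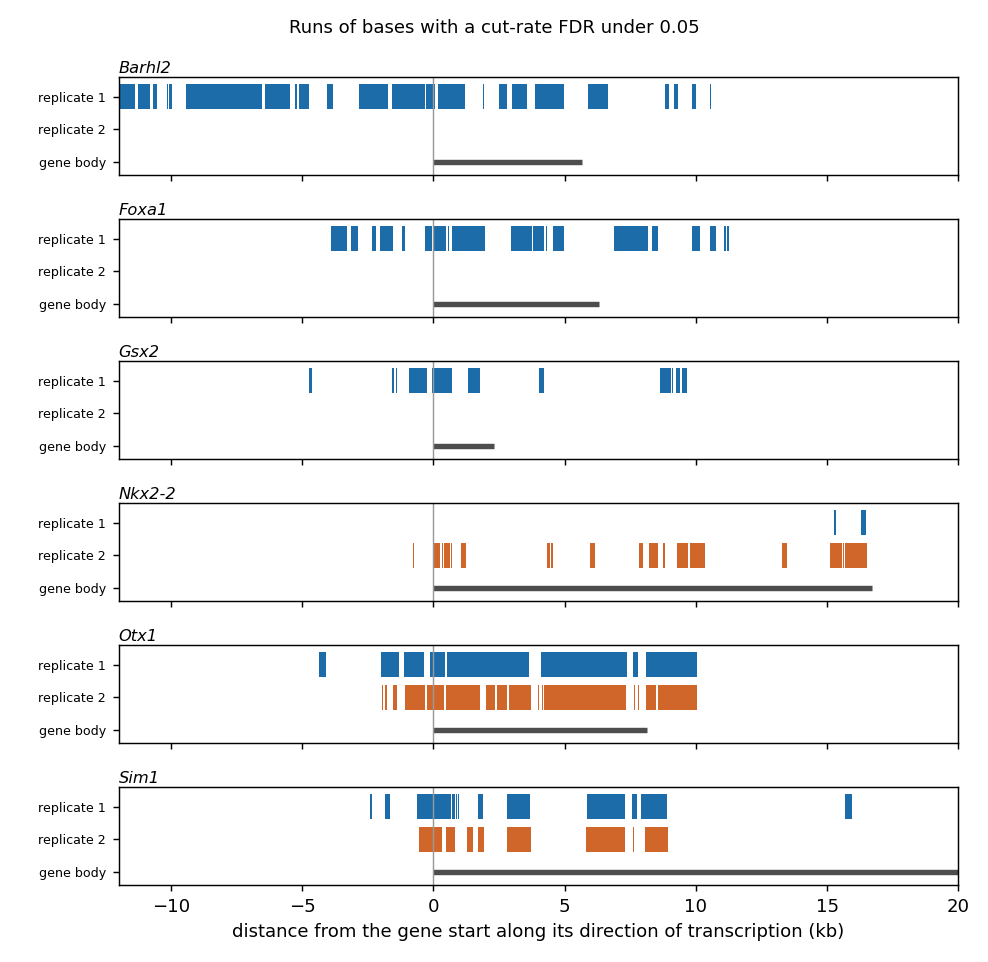
Runs of bases with a cut-rate FDR under 0.05 from 12 kb before to 20 kb after the start of 6 genes, in replicate 1 (blue) and replicate 2 (orange), with the gene body in grey; x is the distance in kb along the direction of transcription. Barhl2 and Foxa1 have runs in replicate 1 only (12917 and 7570 bases), Nkx2-2 mainly in replicate 2 (4294 against 273), and Otx1 (10817 and 9702) and Sim1 (5734 and 5113) have many runs in both.

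Otx1, Sim1 and Irx5 showed that wide open stretches were not all particular to a library. Otx1 had 22 peaks over 14.3 kb in replicate 1 and 21 over 11.9 kb in replicate 2, and Sim1 15 over 11.3 kb and 11 over 9.44 kb. FDR bases in those stretches of replicate 1 were 10733 against 9546 at Otx1 and 5466 against 5038 at Sim1. At Irx5 they were less even, 7480 against 3088, over a stretch of 16 and 11 peaks.

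By role, 9 genes were listed under the midbrain and hindbrain, among them Otx1, named above as a factor of the anterior brain. They had promoter peaks in both libraries at 3 (En2, Pax5, Otx1) and distal ones at 6. En2, an engrailed factor of the midbrain and cerebellum, had promoter values of 0.813 and 0.587, and its relative En1 had 0.841 and no peak. Gbx2 had 0.551 and no peak, Pax8 had 0.367 and no peak, and Pax2 had no promoter peak but 5 and 4 distal peaks. Eye and anterior genes (6) had 2 (Pax6, Six6). Six6 had 0.558 and 0.516, Six2, a nephron progenitor factor, none and 0.587, Six3 0.410 and none, and Vax1, of the optic stalk, 0.657 and none. The ventral tube genes (5) had 2, both of the Nkx6 family: Nkx6-1 had 0.594 and 0.406 and Nkx6-2 had 0.735 and 0.522. Both peaks of each were weak, and their relative Nkx2-2 had none and 0.458. Foxa1 had 0.735 and none, and Foxa2 0.572 and none.

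The LIM factors and Gsx2 (6 genes) had promoter peaks in both libraries at 3, with values of 1.09 and 0.670 at Lhx1, 0.827 and 0.690 at Lhx3, a motor neuron and pituitary factor, and 0.876 and 0.593 at Lhx8, of basal forebrain cholinergic neurons. Lhx4 (0.883) and Gsx2 (0.466) had a peak in replicate 1 alone. Iroquois genes (6) had 2, Irx5 (0.883 and 0.6) and Irx6 (0.473 and 0.529), while Irx1 (0.629) and Irx3 (0.678) had one in replicate 1 alone and Irx2 and Irx4 in neither. All 6 are CpG-rich, so the Iroquois promoters covered the whole range from none to both with the same class of sequence. Brainstem, sensory and hypothalamic genes (6) had 3: Tlx3, Sim1 (0.735 and 0.690) and Barhl1 (0.622 and 0.548). Tlx1, of the same family as Tlx3, had 0.608 and none.

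The somite, dorsal tube, limb and heart genes (9) had promoter peaks in both libraries at 3: Msx1, Pax9 (0.820 and 0.612) and Alx4, a craniofacial factor (0.615 and 0.535). Pax1 (0.579) and Pax3 (0.594), a dorsal tube and muscle factor, had one in replicate 1 alone. Pax7, Hand2, Tbx5 and Pitx1 had none, and their loci held 2 and 3, 4 and 0, 2 and 4, and 3 and 0 distal peaks. Hand2, a heart and limb factor, still had an FDR run of 1808 bp in its locus in replicate 1, outside the promoter window. Their count of promoter peaks in both libraries (3 of 9) equalled that of the midbrain and hindbrain genes (3 of 9).

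Other lists gave the scale for these values. Of 32 transcription factors of the forebrain and hippocampus, 31 had a promoter peak in both libraries, with median values of 1.88 and 1.53, from 3.92 and 3.13 at Zbtb20 down to 0.813 and 0.651 at Lef1. Their share of CpG-rich promoters (78.1%) was near the 74.5% of the 47 genes. Further relatives of the same families (43 genes, such as Lmx1a and Nkx2-1) had 17 (39.5%), near the 47 genes themselves, but only 46.5% of the relatives were CpG-rich. Their median values were 0.94 and 0.72, with Foxa3 (2.04 and 2.22) and Six5 (1.96 and 1.66) highest. The ratio of FDR bases between the libraries was 1.37 over the forebrain list and 1.96 over the relatives, against 2.52 over the 47 genes. Loci of meningeal and mesenchymal markers (Col1a1, Dcn, Foxc1, Foxd1, Lum and Tbx18) had 46 and 23 peaks and a ratio of 2.61, astrocyte and progenitor markers (6 genes, Pax6 among them) 41 and 22 and 1.96, oligodendrocyte lineage markers (8 genes, Nkx2-2 and Nkx6-2 among them) 60 and 61 and 1.47, and thalamus, midbrain and hindbrain markers (8 genes, En1, En2 and Gbx2 among them) 50 and 46 and 1.54. Choroid plexus and ependymal markers (6 genes, Otx2 among them) had 10 and 12 peaks and a ratio of 1.06, with promoter peaks in both libraries at Foxj1, Kl and Ttr and no promoter or distal peak at Folr1 and Kcnj13. Interneuron markers (6) had 28 and 20 and 1.53, Cajal-Retzius markers (5, Lhx1 among them) 21 and 29 and 0.681, microglial markers (6) 20 and 30 and 0.631, and excitatory neuron markers (6) 64 and 48 and 1.45. In FDR bases the meningeal list alone among these reached the ratio of the 47 loci, while its ratios of 2.0 for peaks and 2.11 for footprints lay under the 2.02 and 2.48 of the 47. The part of these cell types, of depth and of tissue dissection in the difference between the libraries was not tested.

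RefSeq promoter sequences (250 bases before to 50 after a start) were matched for 36 of the 47 genes. CGCG was found in 28 of them (77.8%), against 40.6% of 27025 mouse promoters in the table, and GGGCGG on either strand in 22 (61.1%), against 38.2%. CCAAT was found in 20 (55.6%) against 41.1% and GCATGCGC, the core bound by NRF1, in 0 against 3.05%. CGCG was thus more frequent in both the promoters and the distal peaks of these genes than over all, whereas CCAAT was found in 18.6% and 17.4% of their distal peaks, against 21.8% and 22.6%. In the middle 200 bp of their promoter peaks GGGCGG was found in 32.4% and 32%, against 39.1% and 42.9% of all promoter peaks. TGACGTCA was found in 1 of 36 (2.78%, against 2.03%), TAATTA in 3 (8.33%, against 6.12%), CACGTG in 5 (13.9%, against 8.09%) and CAGCTG in 5 (13.9%, against 18.3%). These letter matches are descriptions and are no evidence of binding.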

How the data were processed

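DNase-seq of 2 libraries in 1 group was taken from the deposited files. Per the file headers and labels the assembly was mm10, and each list came from its own library. The aligner, callers and settings were not given in the sources used here. Peaks carry the authors' signal, a linear height. The deposited runs of bases carry a p-value type score, an FDR always under 0.05, and a constant in the footprint files was not used. Signal values of the 2 libraries are given side by side as deposited, and genes were ranked by their mean over the libraries with a peak.

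Gene models were those of GENCODE M21, and bases were read from GRCm38.p6. Overlaps (at least 1 bp), runs and CpG content were computed in Python 3.11.15 (numpy 2.4.6, pandas 2.3.3, matplotlib 3.10.9), with the interval code tested on simulated data. With 2 libraries of 1 group no test was made and no p-value is given. Named genes are the members highest in promoter value (8), distal peaks (8), promoter FDR bases, longest run and promoter footprints (6 each), those with a promoter peak in 1 library, and extremes of each comparison list, of which 1 is not reported here; the others were named after their values were seen. The CTCF consensus, the library rules and the printed sequences were chosen after seeing the data. The 47 members and the lists were chosen with earlier results of these data known. Alternatives changed the window, flank, peak list, overlap, FDR limit and library.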

Additional observations from a re-analysis of the deposited data

How the results depend on the processing

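Of 48 alternatives to 9 results, 38 stayed within the limits set for a change. With the authors' shorter peak list, promoter peaks in both libraries fell from 18 to 3 genes (57.7% of all genes), distal peaks in both from 27 to 11 (31.5%), and the share of CpG-rich promoters from 40.0% to 8.57% (92% of all CpG-rich ones). Asking for 50% overlap of both peaks left 10 genes with a shared promoter peak (52.4% of all genes). At an FDR of at most 0.001 the median over the genes of promoter FDR bases, averaged over the libraries, was 0, against 360.5 at 0.05. Each library alone (without replicate 1 or without replicate 2) gave 20 to 35 genes with a promoter peak (64.5% to 65.7% of all genes), 30 to 39 with a distal peak (55.2% to 57.5%), 45.7% to 77.1% of CpG-rich promoters (96.4% to 97.1%), 18 to 33 genes with a promoter footprint (63% to 64.3%), a median distal percentile of 67.8 to 88.0, 0 to 377 promoter FDR bases, a median longest run of 229 to 647 bp and a median promoter value of 0.596 to 0.735. The cause of these changes was not tested. With the cuts per library unknown, a missing peak does not show closed DNA. No paired analysis was possible because the libraries form 1 group.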
